A study of Mus musculus with 4 samples.

Results

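The genes of the major histocompatibility complex (MHC) and of antigen processing were compared between a parental mouse ovarian cancer cell line and a line selected from it in vivo. Members were the array probes, controls left out, whose RefSeq accession maps to a symbol that begins with H2- or to B2m, Tap1, Tap2, Tapbp, Psmb8, Psmb9, Psmb10, Erap1, Nlrc5, Ciita or Cd74. This gave 72 probes for 49 genes among 56605 probes on the array, 32994 of which had a symbol and stood for 22911 genes. The parental ID8G cells are ID8 cells, a C57BL/6 ovarian surface epithelial cancer line, carrying GFP from a retroviral vector. GO2 cells are their descendants after 2 cycles of intraperitoneal injection into female C57BL/6J mice, each followed by sorting of CD45-negative GFP-positive cells from the omentum and culture. Both lines therefore carry GFP. The medium given for ID8 cells held 4% fetal bovine serum, insulin, transferrin and selenite, with no other agent named. No separate medium is given for GO2 cells. GO2 is a single selected line, so its values are those of this line and not of omental selection in general. RNA of each line was hybridized to 2 Agilent mouse arrays. The labels do not say that the 2 samples of a line were separate cultures, and the p values measure only the spread between these samples, which may be technical. In bulk RNA, fewer cells of a type and less RNA per cell cannot be told apart.

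MHC class I molecules sit on nearly all nucleated cells and show peptides made inside the cell to CD8 T cells. Peptides are cut by the proteasome, whose catalytic subunits Psmb5, Psmb6 and Psmb7 can be replaced by the immunoproteasome subunits Psmb8, Psmb9 and Psmb10. The Tap1 and Tap2 proteins form the transporter that carries peptides into the endoplasmic reticulum, where tapasin (Tapbp) helps load them onto a heavy chain paired with beta2-microglobulin (B2m) and Erap1 trims them. Class II molecules present peptides from endosomes to CD4 T cells, mainly on professional antigen-presenting cells, and need the invariant chain Cd74 and the H2-DM proteins. Nlrc5 and Ciita are the transactivators of class I and class II genes, and interferon-gamma is the classic inducer of both routes.

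Expression levels are log2 intensities minus the 75th percentile of the array, so a level of 0 equals that percentile. The scanner software marks signals that stand well above background. Testing required this mark on both arrays of either line, and 33 member probes of 25 genes qualified. The other 39 member probes, which include every probe of 24 genes, were not tested. Of the 72 probes, 30 were well above background on all 4 arrays, 8 on some arrays and 34 on none. On all arrays together 28368 probes were tested with limma, and a probe counted as differentially expressed at an adjusted p (Benjamini-Hochberg) under 0.05 with a change of 2-fold or more. Among the members, Psmb8 and Tap2 were higher in GO2 cells by this rule and 1 probe of H2-Q10 was lower, while the other 30 tested probes did not reach it. The rule was met by 4.5% of all tested probes in the higher and by 3.34% in the lower direction. By the adjusted p alone, 6 member probes were higher and 9 lower, against 17% and 18.9% of all tested probes. The median difference, GO2 minus ID8G, was -0.09 over the tested members and -0.02 over all tested probes.

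**Figure D1:**
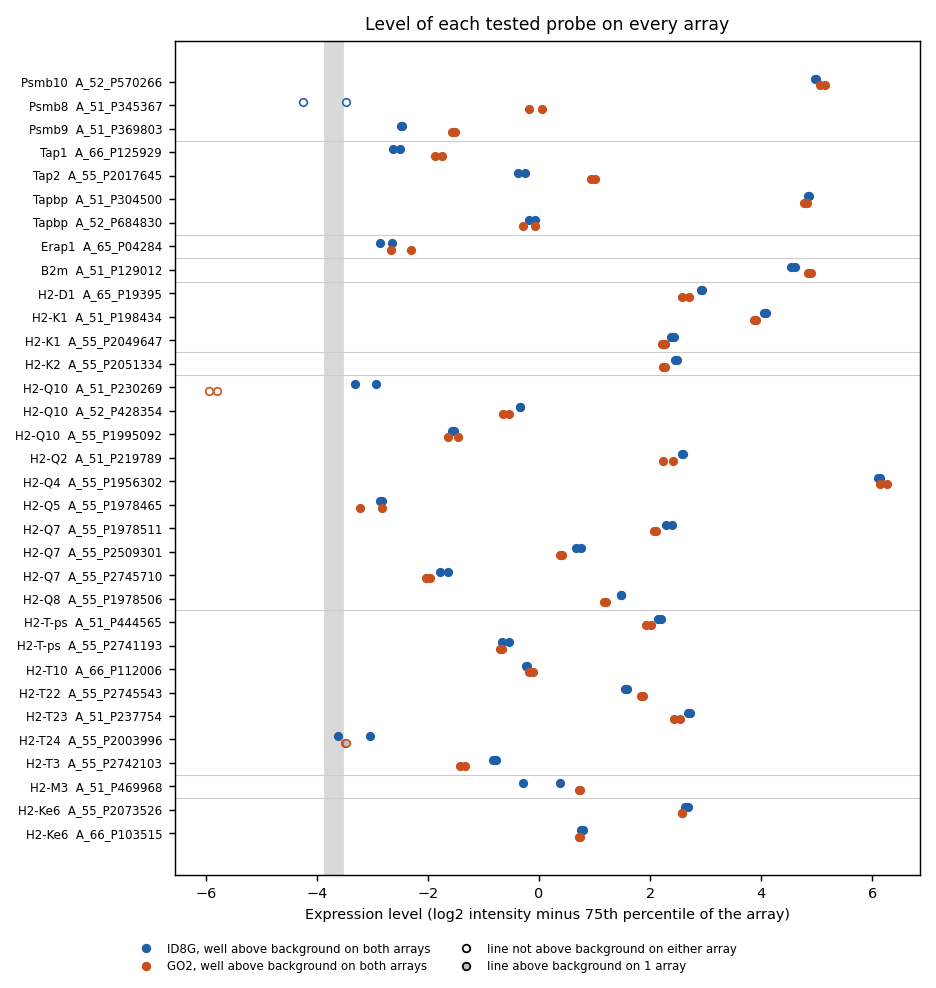
Each row is a tested member probe, grouped by role, and each point is 1 array (blue ID8G, orange GO2) on the log2 scale relative to the 75th percentile of the array. The gray band spans the lowest levels called well above background on the 4 arrays, from -3.85 to -3.53, and open points mark a line above background on neither array, as for Psmb8 in ID8G cells and 1 H2-Q10 probe in GO2 cells.

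The upstream sequences of 4 genes are shown because the genes they precede stand for the different patterns below: Psmb8 and the gene pair Psmb9 and Tap1, which rose, B2m, which rose by a small amount, and H2-D1, a classical heavy chain that fell by a small amount. They are the 250 bases before the RefSeq start on GRCm38.p6, read 5′ to 3′ on the strand of the gene. Capitals mark the letters of 4 motifs on either strand: GAAA, 2 free bases and GAAA (the interferon-stimulated response element core, or ISRE), TTCNNNGAA (interferon-gamma activated site), CCAAT (the Y box) and TGACG (the core of a cyclic AMP response element).
Psmb8, chr17:34197945-34198194, plus strand: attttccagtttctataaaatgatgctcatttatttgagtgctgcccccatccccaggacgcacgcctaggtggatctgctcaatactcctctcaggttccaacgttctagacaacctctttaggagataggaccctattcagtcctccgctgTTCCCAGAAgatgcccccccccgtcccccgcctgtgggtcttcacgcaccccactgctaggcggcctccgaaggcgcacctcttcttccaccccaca
Tap1, chr17:34187306-34187555, plus strand: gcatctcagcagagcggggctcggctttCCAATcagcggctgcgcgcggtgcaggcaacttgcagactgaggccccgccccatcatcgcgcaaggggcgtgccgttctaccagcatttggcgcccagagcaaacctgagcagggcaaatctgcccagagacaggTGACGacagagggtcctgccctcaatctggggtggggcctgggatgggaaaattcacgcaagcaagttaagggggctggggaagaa
B2m, chr2:122147437-122147686, plus strand: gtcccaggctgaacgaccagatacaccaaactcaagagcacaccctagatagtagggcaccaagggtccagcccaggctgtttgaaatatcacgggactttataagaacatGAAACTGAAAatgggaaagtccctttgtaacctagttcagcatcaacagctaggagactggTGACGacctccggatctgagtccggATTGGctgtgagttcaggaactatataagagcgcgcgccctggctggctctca
H2-D1, chr17:35262844-35263093, plus strand: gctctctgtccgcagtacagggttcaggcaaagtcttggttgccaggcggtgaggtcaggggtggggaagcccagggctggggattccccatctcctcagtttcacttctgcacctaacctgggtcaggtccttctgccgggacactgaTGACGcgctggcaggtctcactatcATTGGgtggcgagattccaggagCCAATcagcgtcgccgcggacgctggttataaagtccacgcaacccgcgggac

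Psmb8 had TTCNNNGAA at position -97 and none of the other 3 motifs. Psmb9 is read from the opposite strand to Tap1, and the windows of both genes, from 250 bases before to 50 bases after each start, share 275 bases. That common stretch held CCAAT and TGACG but no exact match to either interferon motif. B2m carried the ISRE letters at position -139, followed by TGACG at -78 and CCAAT at -53, and H2-D1 carried TGACG at -101 and CCAAT at -76 and -53. The table held 40 such windows for 37 member genes, and none for Tap2. CCAAT lay in 33 of the 40 windows (82.5%) and in 37.4% of all 32851 windows, and TGACG in 15 (37.5%) and in 20.8%. The ISRE letters lay in 4 of the 40 member windows, those of B2m, Erap1, H2-T22 and H2-T23, and in 3.44% of all windows. TTCNNNGAA also lay in 4 of the 40, against 8.30% of all windows. Several of these windows belong to paralogs with similar sequence, and a match of letters is no evidence that a factor binds. Only exact letters were counted, so a window without a match, such as that of H2-D1, may still hold a variant of the interferon motifs.

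The immunoproteasome subunit Psmb8 showed the largest difference of any member probe. Its level (A_51_P345367) was -3.48 and -4.24 in ID8G cells, and in GO2 cells it was 0.05 and -0.19. In linear units this was 60.4 and 35.3 in ID8G cells and 656 and 551 in GO2 cells. Neither ID8G array was well above background, so the fold is a bound, and Psmb8 was at least 11.98-fold higher in GO2 cells. Psmb8 passed the filter through its GO2 arrays alone. The measured difference of 3.79 (standard error 0.28, limma adjusted p = 0.00222) therefore rests on ID8G readings that were not well above background. The same limit holds for its range of 3.41 to 4.17 when any 1 array was left out. Psmb9 (A_51_P369803), the subunit that takes the place of Psmb6, rose from -2.49 and -2.48 to -1.51 and -1.56. This was a difference of 0.95 (standard error 0.05, adjusted p = 0.00106), or 1.93-fold, just under the 2-fold limit. Psmb10 (A_52_P570266), which takes the place of Psmb7, read 4.97 and 4.99 in ID8G cells and 5.15 and 5.05 in GO2 cells, well above background in both lines. Its difference of 0.12 (standard error 0.06, adjusted p = 0.189) did not pass the test. Psmb8 and Psmb9 thus passed the test and Psmb10 did not, although its GO2 arrays also lay above its ID8G arrays.

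The standard catalytic subunits that these 3 replace were read out beside them, chosen after their values were seen except for Psmb6. The Psmb5 difference was 0.03 and that of Psmb7 0.17, and both Psmb6 probes, at 0.18 and 0.06, also did not pass the test. No probe of the 3 replaced subunits was differentially expressed.

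Both chains of the peptide transporter rose. For Tap2 (A_55_P2017645), the levels were -0.37 and -0.26 in ID8G cells and 0.93 and 1.01 in GO2 cells. The difference was 1.28 (standard error 0.07, adjusted p = 0.00101), or 2.44-fold, with all 4 arrays well above background. It passed the test of a difference from 0 but not limma's treat test of a difference beyond 2-fold. Tap1 (A_66_P125929) rose from -2.63 and -2.50 to -1.88 and -1.75, a difference of 0.75 (standard error 0.08, adjusted p = 0.00556), or 1.68-fold. A further probe of each gene was well above background on no array and could not be compared. For the loading chaperone tapasin (Tapbp), probe A_51_P304500 gave 4.86 and 4.85 in ID8G cells and 4.77 and 4.83 in GO2 cells. Both GO2 arrays were lower by a small amount, and the difference of -0.06 (standard error 0.05, adjusted p = 0.454) did not pass, while that of the other Tapbp probe was -0.05 (adjusted p = 0.715). Erap1, the trimming peptidase, gave -2.65 and -2.87 against -2.31 and -2.66, and the arrays of the lines overlapped (difference 0.28, standard error 0.15, adjusted p = 0.233).

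Psmb9, Tap1, Psmb8 and Tap2 follow each other in this order on chromosome 17, inside the class II region. Of the 49 member genes, 43 lie on this chromosome. They are flanked by H2-DMb1 on the one side and by H2-Ob on the other, whose probes were not distinguished from background on any array. The 4 genes between them passed the test, each in the same direction, and each kept this direction in all 4 fits with 1 array left out. For Psmb8 the ID8G readings were not well above background. Brd2, the gene next to H2-Oa that is not part of antigen presentation, had 2 tested probes, of which 1 fell by 0.35 on the log2 scale (adjusted p = 0.0263) and the other gave -0.12 (adjusted p = 0.211). Over the MHC interval from Tapbp to H2-M2, 146 tested probes of 95 genes that are not members gave 3 called higher and 3 called lower. The shares of all tested probes were 4.5% and 3.34%. The median difference of these 146 probes was 0.05.

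**Figure D2:**
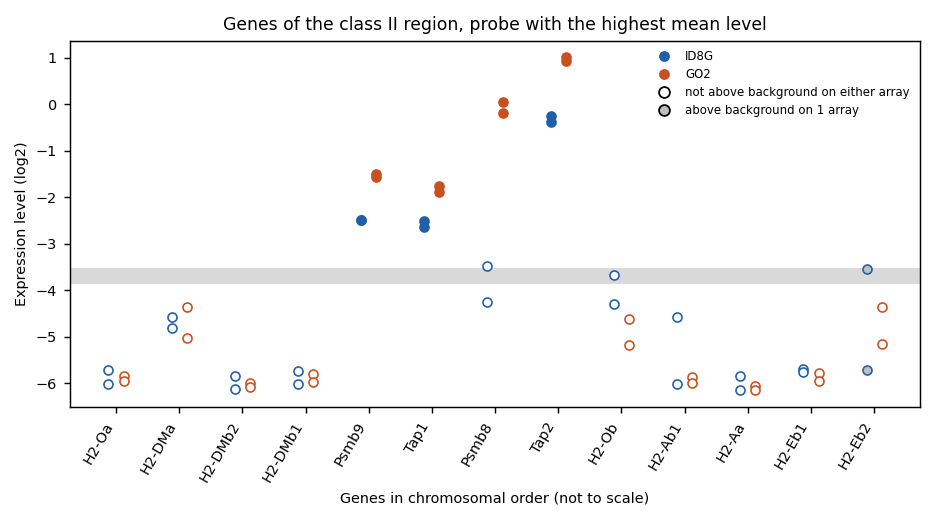
Genes of the class II region are placed in chromosomal order (not to scale), and each point is the log2 level on 1 array for the probe with the highest mean level. Psmb9, Tap1, Psmb8 and Tap2 stand above the background band in GO2 cells and are higher there than in ID8G cells, while the class II genes lie at or under the gray band of lowest levels called above background.

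B2m, the light chain shared by all class I molecules, was abundant in both lines. Its level (A_51_P129012) was 4.60 and 4.53 in ID8G cells and 4.90 and 4.84 in GO2 cells, so the arrays did not overlap. The difference of 0.30 (standard error 0.06, adjusted p = 0.0232), or 1.24-fold, passed the test. It no longer passed when any 1 array was left out (0.27 to 0.34, adjusted p 0.0761 to 0.112), nor when arrays were scaled to the spike-in controls (0.10, adjusted p = 0.562). That scaling moved the median of all tested probes from -0.02 to -0.23, and B2m then lay above that median.

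The classical heavy chains H2-K1 and H2-D1, which present most peptides to CD8 T cells, gave clear signals in both lines, and both GO2 arrays were below both ID8G arrays for all 3 probes. H2-D1 (A_65_P19395) fell from 2.92 and 2.94 to 2.58 and 2.71, a difference of -0.29 (standard error 0.07, adjusted p = 0.0386). H2-K1 (A_51_P198434) read 4.05 and 4.08 in ID8G cells and 3.86 and 3.90 in GO2 cells, and its difference of -0.18 (standard error 0.05, adjusted p = 0.0633) did not pass. The other H2-K1 probe gave -0.16 (adjusted p = 0.105). In linear intensity the brighter H2-K1 probe gave 11157 and 11293 in ID8G cells and 9247 and 9378 in GO2 cells. Surface amounts of these proteins were not measured on the arrays.

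**Figure D3:**
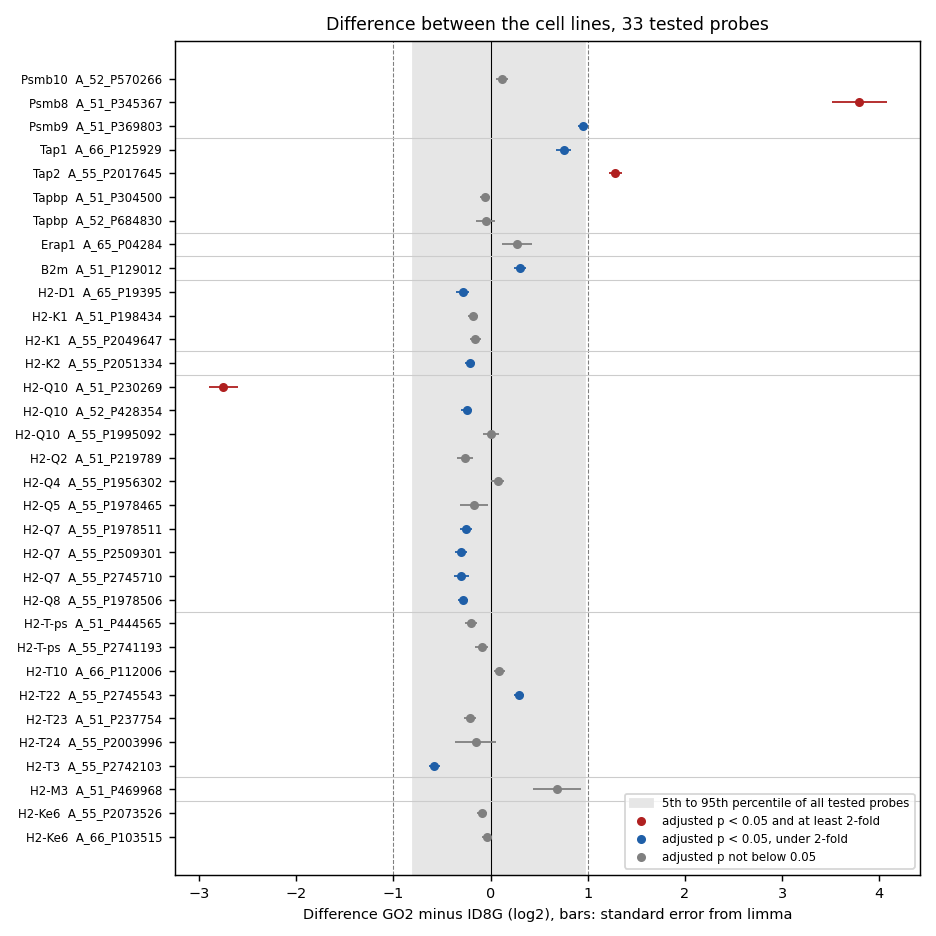
Points are the differences GO2 minus ID8G (log2) of the 33 tested member probes, with bars for the limma standard error, and the gray band spans the 5th to 95th percentile of all tested probes, from -0.80 to 0.97. Psmb8, Tap2 and 1 H2-Q10 probe lie outside the band, and most heavy chain probes lie slightly below 0.

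The whole family of class I heavy chain genes had 40 probes for 28 genes, and 22 probes of 16 genes were tested. Of these, 9 probes were lower and 1 was higher by the adjusted p, against 18.9% and 17% of all tested probes, and 12 did not pass. The median difference was -0.20. Both GO2 arrays lay below both ID8G arrays for 15 of the 22 probes and above for 3, where the same held for 39.6% and 33.9% of all tested probes. The differences were small. Apart from H2-Q10 and H2-T3, which were named after their values were seen, the lower probes that passed had differences between -0.31 and -0.21, and none of them passed in a fit with 1 array left out. These genes are close paralogs, and whether a probe also binds the transcript of a neighbor was not tested, so the probes may not be separate measurements.

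Among the genes of the Q region, H2-Q4 (A_55_P1956302) read 6.09 and 6.15 in ID8G cells and 6.26 and 6.14 in GO2 cells. Its difference of 0.07 (standard error 0.07, adjusted p = 0.430) did not pass. The 3 probes of H2-Q7, which encodes the Qa-2 antigen, fell by 0.25, 0.31 and 0.30 on the log2 scale (adjusted p = 0.0441, 0.0259 and 0.0454), and H2-Q8 fell by 0.29 (adjusted p = 0.0189). These genes were also named after their values were seen. H2-Q10, which encodes a class I protein secreted by the liver, was read by 4 probes that disagreed. Probe A_51_P230269 dropped from -2.94 and -3.31 to -5.80 and -5.95, a measured difference of -2.75 (standard error 0.15, adjusted p = 0.000994). ID8G cells gave a signal above background with it and GO2 cells did not, so the level in GO2 cells was at least 1.61-fold lower. Probe A_52_P428354 gave -0.25 (adjusted p = 0.0414), A_55_P1995092 gave 0.00 (adjusted p = 0.979), and the last was well above background on no array. The H2-Q10 call therefore rests on 1 dim probe, and it was lost when levels were raised to the lowest signal above background and with normexp background correction.

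In the T region, H2-T23, which encodes the Qa-1 molecule read by natural killer cells through CD94/NKG2A, gave 2.68 and 2.71 against 2.44 and 2.53. The difference of -0.21 (standard error 0.06, adjusted p = 0.0600) did not pass. H2-T3 (A_55_P2742103), the thymus leukemia antigen, fell from -0.77 and -0.82 to -1.33 and -1.41, by 0.58 on the log2 scale (adjusted p = 0.00506). With 1 array left out, this difference ranged from -0.62 to -0.54. The other H2-T3 probe was well above background on no array and could not be compared. H2-T22, a ligand of gamma delta T cells, was the only heavy chain higher by the adjusted p. It went from 1.58 and 1.55 to 1.88 and 1.84 (difference 0.30, standard error 0.05, adjusted p = 0.0195). As for B2m, it no longer passed when any 1 array was left out (0.27 to 0.32, adjusted p 0.0770 to 0.1005), nor with scaling to the spike-ins (0.0876, adjusted p = 0.592). In the M region 11 genes had 13 probes, and only H2-M3 was tested. H2-M3, which presents N-formylated peptides, gave -0.30 and 0.38 in ID8G cells and 0.71 and 0.74 in GO2 cells. The ID8G arrays were far apart, and the difference of 0.68 (standard error 0.24, adjusted p = 0.0979) did not pass. Without ID8G replicate 2 it was 1.02 (adjusted p = 0.00795) and met the 2-fold rule. H2-Ke6 begins with H2- but encodes a steroid dehydrogenase, and its 2 probes differed by -0.09 and -0.04.

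The class II molecules themselves gave almost no signal above background in either line. The 10 class II genes, with 4 chain genes and 6 accessory genes, had 15 probes, and 14 of them were well above background on no array. Of the 60 values only 1 was called above background, at -3.55 for H2-Eb2 on ID8G replicate 2. The other values of that probe were -5.70, -5.14 and -4.35. H2-Aa, the alpha chain of I-A, read -5.84 and -6.13 in ID8G cells and -6.06 and -6.14 in GO2 cells, which corresponds to intensities between 8.86 and 11.8. The lowest intensities called above background on the arrays were between 43.6 and 58.4. The 4 probes of H2-Ab1, the beta chain, were between -6.01 and -4.57, and H2-Eb1 was between -5.95 and -5.70. Cd74, the invariant chain, was at -3.89 and -4.57 in ID8G cells and -3.995 and -3.90 in GO2 cells, and H2-DMa was at -4.57 and -4.80 against -4.37 and -5.02. These values give no order between the lines, and they give an upper limit only if the probes detect their transcripts, which was not tested.

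The transactivators were also not above background on both arrays of either line. Neither Nlrc5 probe rose above background on any array, with levels between -6.04 and -5.39. Of the 2 Ciita probes, A_66_P119948 was above background on GO2 replicate 2 alone, at -3.50, against -5.72 and -6.01 in ID8G cells and -5.88 on the other GO2 array. With GO2 replicate 1 left out, this single reading is enough for a call, and the number of members called higher goes from 2 to 4, with Ciita and H2-M10.1 added. Neither Nlrc5 probe thus gave a signal in the RNA in which B2m, H2-K1 and H2-D1 were well above background on every array. Whether the Nlrc5 and Ciita probes detect their transcripts was not tested, so these readings do not show that the transcripts were absent. For Tap2, 1 probe was well above background on no array, while the other read 0.93 and 1.01 in GO2 cells.

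Other genes of antigen presentation, from lists chosen with earlier results of these data known, were read for context. Beside their counts, 17% of all tested probes were higher and 18.9% lower by the adjusted p, and 4.5% and 3.34% met the 2-fold rule. Of the genes for peptide supply and class I loading, 14 were on the array with 23 tested probes. None reached the 2-fold rule, 8 probes were higher and 4 lower by the adjusted p, and the median difference was 0.17. The brightest were Psmb6, Pomp, the assembly factor of the proteasome, with 0.22 (adjusted p = 0.0420) and 0.25 (adjusted p = 0.0648) for its 2 probes, and the chaperone Canx. The probes of Canx disagreed, with 0.00682 (adjusted p = 0.939) for the brighter and 0.25 (adjusted p = 0.0355) for the other. Calr, the chaperone of the loading complex, rose by 0.76 (adjusted p = 0.00160) and Tapbpl, a tapasin-related peptide editor, by 0.70 (adjusted p = 0.00380). The 4 lower probes belonged to Psme1, at -0.26 (adjusted p = 0.0467), and Npepps. Those of Npepps gave -0.35, -0.26 and -0.21 (adjusted p = 0.0271, 0.0325 and 0.0492). Calr, Tapbpl, Psme1 and Npepps were all named after their values were seen. The list for the class II route had 6 tested probes, with 2 higher and 1 lower by the adjusted p and none at 2-fold. Its brightest genes were the endosomal proteases Ctsb, at -0.17 (adjusted p = 0.0823), Ctsd, which rose by 0.19 (adjusted p = 0.0482), and Ctsl, which fell by 0.37 on the log2 scale (adjusted p = 0.0124).

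Among 8 tested probes of class I-like genes, 2 were called higher, where 4.5% of all tested probes were. Both passed the filter through their GO2 arrays alone, so this count is not read as a result about the list. Fcgrt, the heavy chain of the neonatal Fc receptor that pairs with B2m, read -4.62 and -4.59 in ID8G cells and -0.20 and -0.57 in GO2 cells. It was not above background in ID8G cells and was at least 9.79-fold higher in GO2 cells (measured difference 4.22, standard error 0.14, adjusted p = 0.000383). For Mr1, which presents vitamin B metabolites, probe A_52_P212429 was not above background in ID8G cells. Its measured difference of 1.41 (adjusted p = 0.0175) met the rule, but the bound of at least 1.42-fold higher lies under 2-fold. The other Mr1 probe gave 0.25 (adjusted p = 0.0812). Raet1e, a ligand of the NKG2D receptor, fell by 0.65 on the log2 scale (adjusted p = 0.00254), Procr rose by 0.51 (adjusted p = 0.00621), and Cd1d1, which presents lipids, gave 0.23 (adjusted p = 0.140). The list of regulators had 45 tested probes, with 7 higher and 10 lower by the adjusted p, against 17% and 18.9% of all tested probes. Its median was -0.01. Irf7, an interferon-induced factor, was the one called, going from -0.83 and -0.73 to 0.21 and 0.55 (difference 1.16, standard error 0.13, adjusted p = 0.00620). Irf1, which binds the interferon motif of class I promoters, rose by 0.35 in its brightest probe (adjusted p = 0.0117). The 2 Rela probes gave 0.21 (adjusted p = 0.0918) and -0.03 (adjusted p = 0.664). Of the 3 Nfyc probes, the brightest passed at 0.21 (adjusted p = 0.0393), and the others gave 0.08 (adjusted p = 0.455) and -0.00912 (adjusted p = 0.930).

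**Figure D4:**
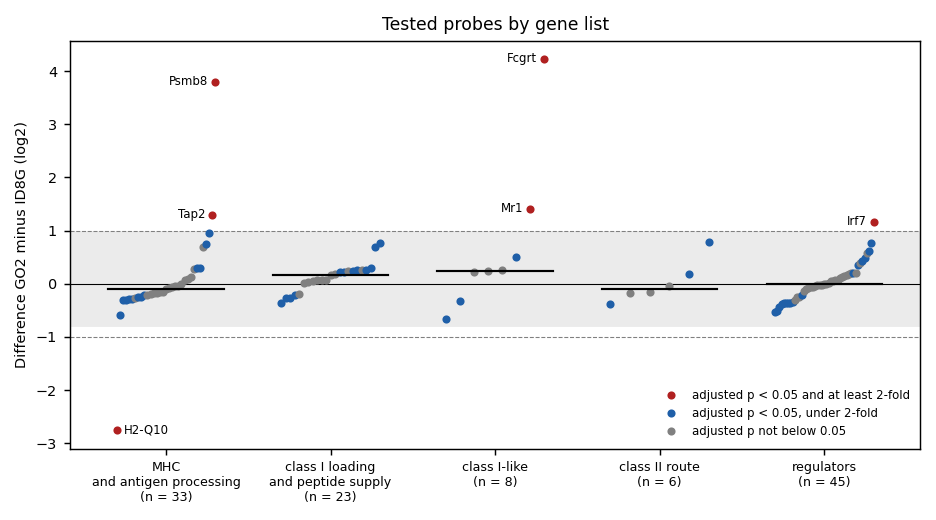
Each point is the difference GO2 minus ID8G (log2) of 1 tested probe, by gene list, with a black line at the median and dashed lines at 2-fold. Psmb8, Tap2, Fcgrt, Mr1 and Irf7 lie above the upper line and 1 H2-Q10 probe below the lower line, while the medians lie between -0.10 and 0.24. For Psmb8, Fcgrt, 1 Mr1 probe and the H2-Q10 probe, 1 line was not well above background, and the measured difference is plotted and not the bound.

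The cell type of the lines was read from marker lists. For comparison, 4.5% of all tested probes were called higher and 3.34% lower, and by the adjusted p 17% and 18.9%. The epithelial keratins Krt8, Krt18 and Krt19 and the mesothelial genes Wt1 and Msln were well above background in both lines, while Krt7 and Epcam were not. Of 16 leukocyte and antigen-presenting cell genes, 10 were well above background on no array, among them Ptprc, which encodes CD45, Adgre1 and Lyz2. The other 6, Itgam, Csf1r, Cd68, Cd14, Fcer1g and Cd3e, each had a tested probe well above background on all 4 arrays. No probe of the list reached the 2-fold rule. By the adjusted p 1 probe was higher, of Cd3e at 0.30 (adjusted p = 0.0489), and 2 were lower, both of Cd14, at -0.67 and -0.69 (adjusted p = 0.00298 and 0.00210). The summed level of the list, to which 1 Itgam probe with levels between 4.13 and 4.39 gives the most, as linear intensity relative to the 75th percentile, was 27.1 and 29.7 in ID8G cells and 26.4 and 26.2 in GO2 cells. Of 8 fibroblast genes, 5 were called higher in GO2 cells (Col1a1, Col1a2, Col3a1, Pdgfra and Pdgfrb), Dcn fell by 0.63 on the log2 scale (adjusted p = 0.00309), and Lum and Thy1 were not above background on any array. The summed level of this list was 73.7 and 71.0 against 211 and 216. The summed level of the mesothelial and epithelial list was 675 and 668 against 386 and 390, with Krt19 called lower and Upk3b higher. Bright keratin probes weigh heavily in this sum. Krt18 fell by 0.81 and Krt8 by 0.55 on the log2 scale (adjusted p = 0.00162 and 0.00438), both under 2-fold. By the adjusted p 4 probes of the list were lower and 1 was higher. The part of these shifts in the differences of the antigen processing genes was not tested.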

How the data were processed

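Total RNA of ID8G and GO2 cells (2 samples each) was labeled with Cy3 and hybridized to Agilent 8 x 60K mouse arrays (1 color). The scanner files that the authors deposited give an intensity per spot, which Feature Extraction 11.5.1.1 had corrected for background, with no scaling across arrays. A deposited table of log2 values served as 1 alternative. Its values are scaled to the 75th percentile, and each probe's median is removed. After a shift per array, its differences equaled those of the log2 intensities within 1e-04 for 99.7% or more of probes. Per-sample columns left unused numbered 0.

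From the intensities, outlier spots were left out, spots of one probe were averaged, and the 75th percentile over noncontrol probes was subtracted on the log2 scale. The arrays had 59305 spots, 27502 to 28841 probes well above background, replicate correlations of 0.997, 0 saturated spots, 1 slide and 1 scan. The number of arrays limits the precision. Two-sided tests were made with limma 3.58.1 in R 4.3.3 and adjusted over 28368 probes, because an exact permutation test of 2 against 2 arrays cannot go below 0.333. The procedure was tested on simulated data. A bound compares the brighter line with, for each array of the dim line, the higher of its lowest signal above background and the probe's own signal. Figures used matplotlib 3.10.9 in python 3.11.15.

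Symbols came from RefSeq accessions through a GRCm38.p6 table (58.3% of probes matched), which also gave promoter windows. The arrays were designed on mm9. The members and lists were chosen with earlier results of these data known. Named are members with a called probe, a set of main pathway genes, and from each other list the called genes and the 3 brightest. Alternatives were normexp on the spots' median pixel (offset 50), quantile normalization, median centering, spike-in scaling, other filters and thresholds, a floor, kept outlier spots, a variance trend, the methods' t-test, limma treat, 1 value per gene, the deposited table, the replicate number as a block, and each array left out. A planned comparison of protein sequences was not made, and a slide block was not possible with 1 slide.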

Additional observations from a re-analysis of the deposited data

How the results depend on the processing

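Psmb8, Psmb9, Tap1, Tap2 and the H2-Q10 probe A_51_P230269 kept their direction and an adjusted p below 0.05 in every alternative that compared single probes at a difference of 0, apart from the methods' t-test. Psmb8 and this H2-Q10 probe could not be compared under the filter for all 4 arrays. Each had passed the filter only through the line in which it was high, so its kept direction is not separate support for the difference. The H2-Q10 call at 2-fold was lost with the floor and with normexp. Of 525 values of member probes under the alternatives, 420 kept direction and side of the adjusted p, 71 lost it, 20 gained it and 14 changed sign, none of which had passed the test. The cause was not tested where none is given.

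With normexp background correction 0 member probes and 0 member genes were called lower, 818 of all probes were higher and 517 lower, and 1 probe of the other lists was higher, while H2-Q5 gave 0.00873 and H2-Ke6 A_66_P103515 0.0256. Median centering gave a median of -0.12 for members and -0.0528 for all probes. Scaling to 7 spike-ins gave medians of -0.30 and -0.23, 14 member probes lower by the adjusted p and 1434 of all probes called lower. Without a filter on dim probes 2 member probes were called lower and 2 were lower by the adjusted p, with medians of -0.0585 and -0.0518. The filter for all 4 arrays, which removes Psmb8 and the dim H2-Q10 probe by construction, left 1 member probe and 1 member gene higher, 0 lower, 666 and 606 of all probes, and 1 probe of the other lists. The floor left 0 member probes and genes lower. The methods' t-test with Welch's correction and Benjamini-Hochberg adjustment called 0 member probes in either direction by either rule, 0 and 3 of all probes and 0 of the other lists, and at an unadjusted p below 0.05 it had 6 member probes higher and 5 lower. With limma treat, which tests for a difference above 2-fold, Tap2 was no longer called, 1 member probe and gene (Psmb8) was higher, and 748 and 440 of all probes. With no minimum difference 6 member probes (6 genes) were higher and 9 (6 genes) lower, and 4835 and 5348 of all probes. With 1 value per gene, the mean of its tested probes, 0 member genes were lower, since H2-Q10 gave -0.998 (adjusted p = 0.00179), just under 2-fold.

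With 1 array left out, member probes and genes called higher ranged from 2 to 4 and lower from 1 to 2, member probes lower by the adjusted p from 2 to 3 and higher from 4 to 6, all probes from 1288 to 1628 and from 913 to 1408, other lists from 2 to 3 and from 0 to 1, and the member median from -0.15 to -0.0882. Without GO2 replicate 1 there were 4 higher, without ID8G replicate 2 H2-M3 was called, and without ID8G replicate 1 an H2-T24 probe was called lower.

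The replicate number did not pair the arrays (correlation of same-numbered deviations 0.0273). With it as a replicate block, 4 member probes were lower by the adjusted p instead of 9, and the 3 calls were kept.

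Signs changed for H2-Q10 A_55_P1995092 with quantile normalization (-0.0140), median centering (-0.0269) and spike-in scaling (-0.20), and for Psmb10 (-0.0876), H2-Q4 (-0.13) and H2-T10 (-0.12) with spike-in scaling. With an array left out they changed for H2-Q10 A_55_P1995092 (range -0.0907 to 0.0971), Tapbp A_52_P684830 (-0.16 to 0.0607), H2-T24 (-0.44 to 0.14) and H2-Q5 (-0.37 to 0.0214).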
